A study of Mus musculus with 24 samples.

Results

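Skeletal muscle of 4 homozygous Eya3 mutant mice was set against a pool of wild-type muscle RNA on 8 of the 24 cDNA arrays of the study. The mice are called W, X, Y and Z. Each was measured on 2 arrays with the dyes swapped, so that the mutant RNA carried Cy5 on one array and Cy3 on the other. All arrays titled as muscle were taken. The mean of both arrays stood for a mouse, and clones were kept where 3 or 4 mice had such a mean. This left 15210 of 20794 clones, 9697 of them in all 4 mice, and 7290 of the 9030 gene symbols on the array, 5305 of them in all 4 mice. The mutants carried a gene trap insertion, a promoterless lacZ reporter in an intron of Eya3, derived from Sv129S2 embryonic stem cells and crossed to C57BL/6 for several generations. Mutants and pool animals were male and 13 weeks old. The pool held 6 wild-type animals by the labelling protocol and 5 by the series design, and the range of animal numbers given for it takes in the numbers of mice W and X. The sources used here give neither whether these mice were left out of the pool nor which muscle was dissected. Heart and brain of the same 4 mice, each against a wild-type pool of that organ, serve as comparison. Values are log2 ratios of mutant over pool. This direction is likely but not stated, and rests on the 871 muscle values beyond 10 in size, which were all above 0 with the mutant in Cy5 and all below 0 with the mutant in Cy3. With 1 pool as the control, nothing is known of how wild-type animals vary, and any peculiarity of the pool enters all 4 mice alike.

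Eya proteins are transcriptional co-activators and tyrosine phosphatases that do not bind DNA themselves and act through DNA-binding partners. In skeletal muscle, the MEF3 motif is known from promoters of muscle genes, and fibres range from fast, glycolytic to slow, oxidative ones, each with its own forms of the contractile proteins. Fibre types, calcium handling, the membrane skeleton, the neuromuscular junction, energy metabolism, protein turnover and the other cells that a piece of muscle holds were therefore described as 33 lists of genes. The comparison asks which muscle genes differ where Eya3 is disrupted, and how alike the mutant mice are.

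The promoters of 5 measured genes are shown as RefSeq sequences of build GRCm38.p6, each as a stretch of 150 bases from the 250 before the transcription start. They were chosen because Myog and Ndufa7 hold the MEF3 letters TCAGGTTTC in the 250 bases before the start, and because Adipoq, Fasn and Hba-a1 belong to the gene groups that differed most between the mice. Capitals mark MEF3 in the former pair and the CCAAT box, on either strand, in the other 3 promoters.
Myog: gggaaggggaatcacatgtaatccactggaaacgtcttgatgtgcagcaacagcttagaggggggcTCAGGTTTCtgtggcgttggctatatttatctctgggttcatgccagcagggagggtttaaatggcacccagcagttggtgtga
Ndufa7: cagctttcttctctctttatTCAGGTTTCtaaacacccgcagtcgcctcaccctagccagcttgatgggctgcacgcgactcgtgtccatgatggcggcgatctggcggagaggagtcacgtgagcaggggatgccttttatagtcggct
Adipoq: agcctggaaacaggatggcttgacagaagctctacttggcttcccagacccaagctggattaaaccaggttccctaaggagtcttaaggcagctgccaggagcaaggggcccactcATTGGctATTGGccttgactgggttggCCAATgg
Fasn: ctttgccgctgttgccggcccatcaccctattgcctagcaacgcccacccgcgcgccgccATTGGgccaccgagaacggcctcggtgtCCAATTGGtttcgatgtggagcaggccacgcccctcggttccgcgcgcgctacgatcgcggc
Hba-a1: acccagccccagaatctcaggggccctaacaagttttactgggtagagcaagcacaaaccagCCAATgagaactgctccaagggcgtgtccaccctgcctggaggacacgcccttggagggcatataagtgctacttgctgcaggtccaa
The stretches lie at chr1:134289854-134290003 on the plus strand for Myog, at chr17:33824383-33824532 on the plus strand for Ndufa7, at chr16:23146386-23146535 on the plus strand for Adipoq, at chr11:120824548-120824697 on the minus strand for Fasn and at chr11:32283522-32283671 on the plus strand for Hba-a1. The MEF3 match starts 84 bases before the start of Myog, the muscle differentiation factor myogenin, and 169 bases before that of Ndufa7, a subunit of respiratory complex I. Counting both strands, Adipoq and Fasn hold CCAAT 3 times each, and Hba-a1 holds it 88 bases before its start. In Fasn the matches that begin 62 and 59 bases before the start overlap as CCAATTGG. On both strands, TCAGGTTTC occurs in 127 of 32851 mouse promoters of this length (0.387%), and CCAAT in 11120 (33.8%). Of 28 measured genes with the MEF3 letters, 12 had a mean ratio above 0 and 16 below 0, with a median of -0.03 against 0.01 over all 7290 genes. Myog had -0.31 in mouse W, -0.77 in mouse Y and 0.07 in mouse Z, with no value in mouse X. Ndufa7 lay above 0 in all 4 mice, at 0.29, 0.13, 0.46 and 0.10 in W, X, Y and Z.

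A muscle array lacked values for 7.61% to 24.5% of clones, and the arrays of mouse W for 21.1% and 24.5%. The values hold traces of their processing. The 871 values beyond 10 all stood for a ratio of 1e+05 offset by a constant of that array, and 6.90% to 11.9% of values lay at ratios of whole numbers up to 10 once that constant was removed, against 1.89% to 3.19% on a shifted grid. A total of 22 clones sat within 0.01 of the array's constant on at least 5 of the 8 arrays, among them clones of the fast troponin genes Tnnc2 and Tnnt3. The swapped arrays of a mouse correlated with Pearson's r of -0.05 to -0.01 across clones, a description only, since clones of an array share their hybridisation. Since the files hold ratios and no levels, the tissue was checked by which spots had a value. Fast fibre genes had a value on 95.2% of muscle spots, 91.8% of heart spots and 83.7% of brain spots, and heart muscle genes had the most in heart (88.8%, 96.0% and 85.3%). Over all genes the shares were 86.15%, 88.88% and 87.8%, and slow fibre genes had 89.43%, 91.37% and 85.12%. Neuron genes had a value on 78.5% of muscle spots and 89.1% of brain spots. The Eya3 clone had a value on only 3 muscle arrays, all with the mutant in Cy3 (2.79, 0.32 and -2.39), and could not check the genotype.

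No clone was called in muscle. Limma, which tests the mean of the 4 mice against 0, called 0 of 15210 clones at an adjusted p under 0.10 (0%), with a lowest adjusted p of 0.954, and 521 clones had an unadjusted p under 0.05. With no difference at all, the latter threshold gives a share of 0.05 of the clones, and 521 is fewer than that. SAM, the test named in the methods, also called 0. Of 9402 clones tested with a symbol, 190 had an unadjusted p under 0.05 above 0 and 119 below 0. Among the 5305 genes with a value in all 4 mice, 354 lay above 0 in each mouse (6.67%) and 247 below 0 (4.66%). With the sign of the Cy3 arrays turned, 438 lay above 0 in each mouse (8.26%) and 770 below 0 (14.5%), so both shares rest on the direction of the ratios. The former shares are the background for the lists described here. In tissue samples, fewer cells of a type and less RNA per cell cannot be told apart.

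Clones with the lowest p-values and those farthest from 0 in all mice were examined on their single arrays. A clone of Itpk1, an inositol phosphate kinase, had 1.38, 1.08, 1.79 and 2.05 in W, X, Y and Z, a mean of 1.58 ± 0.43 (SD, n = 4 mice), but its arrays of mouse Z read 5.44 and -1.33. Hook2, a linker of cargo to microtubules, had 1.16, 1.83, 0.97 and 1.04, and its arrays of mouse X read -0.61 and 4.26. The means of both clones thus held arrays on opposite sides of 0. Ube2d2a, a ubiquitin-conjugating enzyme, was more even, with 1.15, 0.69, 1.01 and 0.87 and a mean of 0.93 ± 0.19 (SD, n = 4 mice), and it lay above 0 on 7 of 8 arrays. Below 0 in all mice were Ly6g6c, with -1.25, -0.88, -0.65 and -0.90, a clone of Pcsk1n, an inhibitor of a prohormone convertase, with -0.98, -0.69, -0.69 and -1.48, and a clone of Cox6a1, a subunit of cytochrome oxidase, with -0.55, -1.22, -1.12 and -0.57. The adjusted p from limma was 0.954 for each of these 6 clones. Over all clones of the gene the mean was 0.65 for Itpk1 and -0.44 for Pcsk1n.

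A stricter look asked which genes lay on the same side of 0 on all 8 single arrays, and these genes were chosen after their values had been seen. Of 5305 genes, 11 lay above 0 on every array (0.207%) and 13 below 0 (0.245%), against 29 and 33 of 5984 genes in heart and 54 and 146 of 6141 in brain. Signs falling at random and independently on 8 arrays would give larger shares than those of muscle. The counts alone thus do not set these genes apart. Tbx5, a T-box transcription factor of heart and forelimb development, had array values from 0.30 to 1.09 and a mean of 0.71 ± 0.19 (SD, n = 4 mice) over 2 clones. Its mean was 0.00 in heart and -0.31 in brain. Slc2a5, a fructose transporter, had 0.40 ± 0.09 (SD, n = 4 mice), with array values from 0.12 to 0.79. Car2, a carbonic anhydrase abundant in red cells, had 0.57 ± 0.30 (SD, n = 4 mice). Below 0 on every array was Pgm1, the phosphoglucomutase that links glycogen to glycolysis, with array values from -0.55 to -0.14 and a mean of -0.30 ± 0.13 (SD, n = 4 mice), beside means of -0.40 in heart and -0.57 in brain. Gpt2, a mitochondrial alanine aminotransferase, had a mean of -0.80, and Coro7, a coronin of the Golgi, -1.28. None of these 24 genes was on the same side of 0 on all 8 arrays of heart or brain as well, except Ost4, a subunit of the oligosaccharyl transferase, which lay above 0 on all 8 arrays of muscle (mean 0.41) and of heart (mean 1.42).

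**Figure D1:**
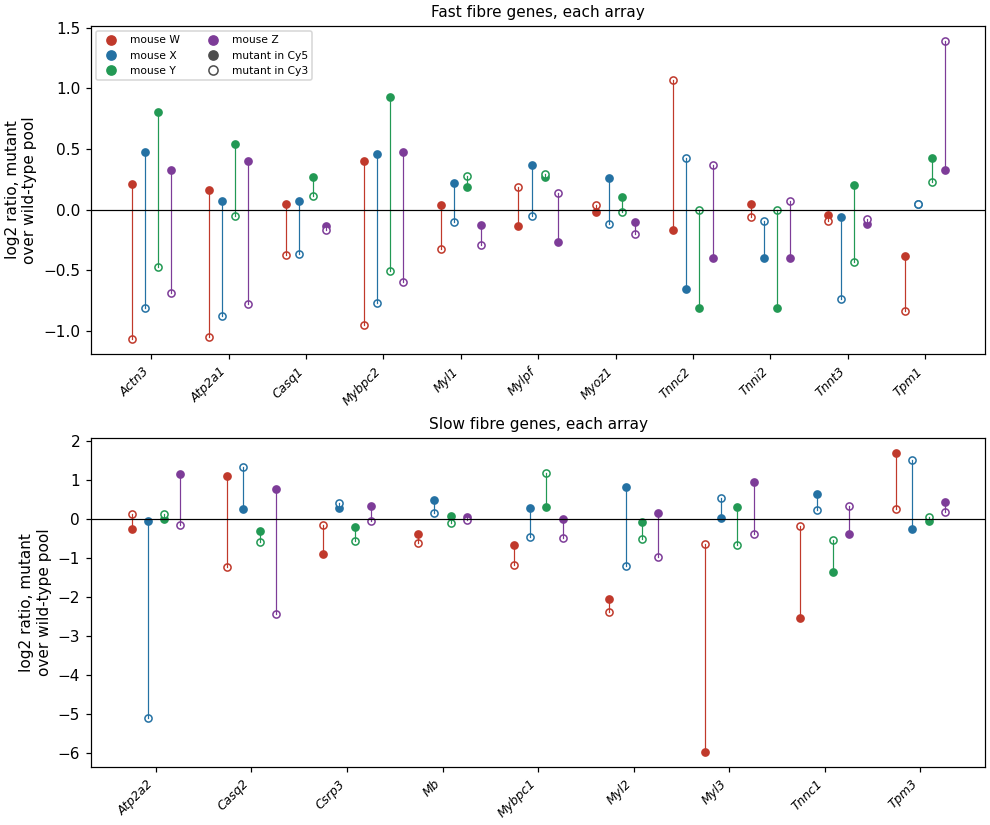
Log2 ratio of mutant over wild-type pool (y axis) for each fast fibre gene (upper panel) and slow fibre gene (lower panel, wider scale) measured in all 4 mice. Points are single arrays, coloured by mouse, filled with the mutant in Cy5 and open with the mutant in Cy3, and a line joins the 2 arrays of a mouse. Actn3, Atp2a1 and Mybpc2 take opposite signs with the dye in every mouse, and Myl2 lies at -2.04 and -2.37 in mouse W.

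Genes of fast fibres stayed close to 0. Of 13 on the array 11 were measured, 2 with a mean above 0 and 9 below 0, and the median was -0.07, beside 48.3% of all 7290 genes below 0 and a median of 0.01. Among them 0 lay above 0 and 2 below 0 in all 4 mice, and their median SD over the mice was 0.20, against 0.47 for all genes. Actn3, the fast fibre actinin of the Z disc, had -0.43, -0.17, 0.17 and -0.18 in W, X, Y and Z, with a mean of -0.15 ± 0.24 (SD, n = 4 mice). Atp2a1, the fast fibre calcium pump of the sarcoplasmic reticulum, had -0.44, -0.40, 0.25 and -0.19. Tpm1, a tropomyosin, had -0.61, 0.05, 0.33 and 0.86. Mouse W lay below 0 and mouse Y above 0 for all 3 genes. The sign of several fast fibre genes followed the dye more than the mouse. For Actn3 the arrays with the mutant in Cy5 read 0.21, 0.47, 0.80 and 0.33, and those with the mutant in Cy3 read -1.07, -0.81, -0.47 and -0.69, and the 2 sets did not overlap. Mybpc2, the fast myosin-binding protein C, showed the same split, from 0.40 to 0.93 against -0.95 to -0.50. With only the Cy5 arrays 9 fast fibre genes lay above 0 and 3 below 0, and with the sign of the Cy3 arrays turned it was 7 and 4, so the count of 9 below 0 rests on the direction of the ratios. The troponins Tnni2 (-0.21 ± 0.17, SD, n = 4 mice) and Tnnt3 (-0.17 ± 0.15, SD, n = 4 mice) were the fast fibre genes below 0 in all 4 mice. Of the 2 clones of Tnnt3, however, 1 sat within 0.01 of the array's constant on 7 arrays. Casq1, the calcium store protein of fast fibres, had 0.19 in mouse Y and between -0.16 and -0.14 in the other mice. Myl1 and Mylpf, the fast myosin light chains, had means of -0.02 and 0.10, and Myoz1, a Z disc protein, had -0.01 with an SD of 0.10. Tnnc2, the fast troponin C, had 0.45, -0.11, -0.41 and -0.01. Its only clone sat within 0.01 of the array's constant on 7 arrays, so these values mostly give that constant. The gene is still counted among the 9 below 0. Pvalb, the calcium buffer parvalbumin, had values in 2 mice only (0.26 in Y and 1.02 in Z), and Myoz3, a Z disc protein, in 1 mouse (-1.33 in Z).

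Genes of slow fibres varied more. Of 14 on the array 12 were measured, 3 with a mean above 0 and 9 below 0, and the median was -0.13. Their median SD was 0.70 over the 9 genes measured in all 4 mice, against 0.24 in heart and 0.35 in brain. Mouse W was the lowest in 6 of these 9 genes, where it was the lowest in 36.2% of all genes, and the medians were -0.52, 0.31, -0.18 and 0.02 in W, X, Y and Z. With the sign of the Cy3 arrays turned it was the lowest in 5 of 9, against 29.1% of all genes. On the Cy5 arrays alone mouse W was the lowest in 8 of 10 genes and on the Cy3 arrays in 4 of 10. The shares over all genes were 31.9% and 33.1%. With arrays centred and scaled it was 4 of 9, against 30.5% of all genes. Myl2, the slow and ventricular regulatory light chain, had -2.20, -0.20, -0.30 and -0.41, a mean of -0.78 ± 0.95 (SD, n = 4 mice), and both arrays of mouse W were low, at -2.04 and -2.37. Without mouse W its mean was -0.30, and with the sign of the Cy3 arrays turned it was 0.49. Myl3, the slow essential light chain, had -3.30, 0.29, -0.18 and 0.29, and its arrays of mouse W read -5.96 and -0.64. Tnnc1, the slow and cardiac troponin C, had -1.35, 0.44, -0.94 and -0.03. Mb, the oxygen store myoglobin, had -0.50, 0.31, -0.01 and 0.01, and Csrp3, the muscle LIM protein, had -0.52, 0.35, -0.39 and 0.15. In all 5 genes mouse W was the lowest. Mybpc1, the slow myosin-binding protein C, was also lowest in W, with -0.92, -0.09, 0.75 and -0.23. Tpm3, the slow tropomyosin, went the other way, with 0.98 in mouse W and a mean of 0.48 ± 0.41 (SD, n = 4 mice). Atp2a2, the slow calcium pump, had its low mean of -0.52 from mouse X alone (-2.58), whose arrays read -0.06 and -5.09, the latter with 1 of 3 clones at -16.10, and without values beyond 10 its mean was 0.18. Casq2, the slow calsequestrin, had -0.05, 0.80, -0.45 and -0.83. Tnnt1 (-0.39), Myoz2 (0.04) and Pln, the inhibitor phospholamban of the slow calcium pump (0.01), were measured in 3 mice. In 2 mice only were Tnni1 (0.94 in Y and 0.61 in Z) and Myh7, the slow myosin heavy chain (-1.03 in W and 1.21 in X). Without mouse W the slow fibre genes had 6 above 0 and 5 below 0 with a median of 0.04, and with the sign of the Cy3 arrays turned they had 6 and 6. Neither fibre list had its median on the same side of 0 in all mice. In mouse W the genes of fat cells, given later with their values, were high instead, with a list median of 0.95 and 11 of 15 genes highest in that mouse, and their part in its low slow fibre values was not tested. The genes marking heart muscle, of which Myl2, Myl3 and Csrp3 are also slow fibre genes, were lowest in mouse W in 8 of 10 cases (medians -0.19, 0.19, 0.04 and 0.12), and in 5 of 10 with the sign of the Cy3 arrays turned. On the Cy5 arrays alone it was 7 of 12, against 31.9% of all genes. On the Cy3 arrays it was 4 of 10, against 33.1%, and the median was 0.08 in W and lowest in Y, at -0.10.

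The rest of the contractile and excitation apparatus gave small medians. The thin filament and Z disc had 8 genes above 0 and 9 below 0 (median -0.02), and mouse W was again the lowest, in 11 of 15 genes, but in 5 of 15 with the sign of the Cy3 arrays turned. Nrap, a scaffold of myofibril assembly, had the largest mean of the list, 0.86, from a single array of mouse Y at 7.79, where 1 of 2 clones stood at 15.80, and without values beyond 10 its mean was -0.10. Cavin4, a caveolar protein, had a mean of 0.34 ± 0.37 (SD, n = 4 mice), Actn2, the actinin of all fibres, had 1.01 in mouse X and -0.55 in mouse W, and Capza1, an actin capping protein, had 0.71, -0.78, 0.16 and -0.43. Actc1, the cardiac actin, had -0.30, -0.22, 0.08 and -0.24, and Tcap, the cap of titin, had -0.27 in W and 0.02 to 0.05 in the other mice. Genes of calcium release and reuptake had 11 above 0 and 8 below 0 (median 0.05). Ryr1, the calcium release channel, lay below 0 in all 4 mice, at -0.58, -0.07, -0.05 and -0.18, and S100a1, which binds that channel, had 0.37, 0.44, 0.23 and -0.01. Asph, the gene of junctin and junctate, had -0.01 in mouse W and 0.79 to 0.95 in the others. Camk2g, a calcium-dependent kinase, had 2.16 in mouse X from a Cy5 array at 5.18 and -0.76 to -0.34 in the other mice. No clone of Camk2g was measured in all 4 mice, so its mice were not compared on the same clones. The dystrophin complex and sarcolemma had 10 above 0 and 9 below 0 (median 0.01). Dmd, the dystrophin gene, had -0.47, -1.20, 0.40 and -0.18, but its Cy5 arrays lay between -3.31 and -0.40 and its Cy3 arrays between 0.61 and 1.28, so its sign too followed the dye. Utrn, the dystrophin relative utrophin, had -1.01, -0.37, 0.89 and -0.99. Col6a1, a chain of the collagen around fibres, had -1.91, 1.71, -0.33 and -0.79, and Sntb2, a syntrophin, had 0.05, -0.95, -0.51 and -0.56. Of the neuromuscular junction 10 genes were measured, 5 on each side of 0 (median -0.05). Agrn, the nerve-derived organiser of acetylcholine receptors, had -1.10, -0.05, 1.39 and -1.12, and both arrays of W, Y and Z kept the sign of their mouse. Its mean was -0.22, but 0.10 over clones measured in all 4 mice. Chrna1, a receptor subunit, had 2.15 in mouse Y from a Cy5 array at 4.30 alone, and Chrnb1 had a mean of -0.17 ± 0.29 (SD, n = 4 mice). Kcnc4, a potassium channel, had -1.10, -0.46, 0.19 and -0.16.

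Of the Eya genes and genes that act with them, Pax genes included, 5 were on the array and 2 were measured. Eya2, the Eya gene of muscle and limb development, had -1.57, -1.50 and 0.60 in X, Y and Z, with no value in W, and Pax2 had 0.86, -1.56, -0.05 and 0.50. Pax6 had values in 2 mice (-0.94 in X and 0.48 in Y), and Pax3 in none on both arrays. Myogenic factors and satellite cell genes had 7 above 0 and 13 below 0 (median -0.11). Mef2c, a MADS-box activator of muscle genes, lay above 0 in all 4 mice with little spread, at 0.13, 0.20, 0.28 and 0.19, a mean of 0.20 ± 0.06 (SD, n = 4 mice). Srf, the serum response factor of actin genes, had 0.08, 0.12, 0.26 and 0.22, and Dll1, a Notch ligand, had 0.47, 0.51, 0.14 and 0.22. These were 3 of 16 genes above 0 in all mice, against 6.67% of all genes. On single arrays each of them lay on both sides of 0, with Mef2c between -0.08 and 0.40. Mef2d, a relative of Mef2c, had a mean of -1.03 from a single Cy3 array of mouse Y at -8.52, where 1 of 2 clones stood at -16.62, and 0.05 without values beyond 10. Tcf3, the partner E2A of the myogenic factors, had 0.23, -1.42, -0.03 and 0.80. Vcam1, a membrane protein of satellite cells and endothelium, had -1.59, -0.75, -0.82 and 0.49, and Calcr, the calcitonin receptor of quiet satellite cells, had -1.33, -1.05, 0.32 and 0.09.

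Genes of size control and atrophy had 16 above 0 and 15 below 0 (median 0.06), and 0 of 27 lay on the same side of 0 in all mice. Fbxo32, the ubiquitin ligase subunit atrogin-1, which rises in wasting muscle, had 0.75, -0.17, 0.69 and -0.79, an order of mice that recurs among the haemoglobin clones. Foxo1, a transcription factor that drives Fbxo32, had 0.62, 0.15, -0.14 and 0.15. Igfbp6, which binds insulin-like growth factor 2, had 0.46, -1.17, -0.59 and -0.72. The mean of 1.62 for Smad2, which carries myostatin signals, came from a single Cy5 array of mouse Y at 15.80, among the values beyond 10. Gabarapl2, of the autophagosome, likewise had 3.73 in mouse Y and a mean of 1.05, but 0.13 without values beyond 10. Bmpr1a, a receptor of bone morphogenetic proteins, had 1.45, -0.64, -1.13 and -2.76, with arrays from -5.31 to 4.06. Since a gene trap from Sv129S2 cells brings a stretch of that strain's chromosome along, the 50 genes on each side of Eya3 on chromosome 4 were described as well. Of these 100 genes 84 were measured, 44 with a mean above 0 and 40 below 0 (median 0.02), and of 58 measured in all mice 1 lay above 0 (Bsdc1) and 3 below 0 in each (Ago4, Dhdds and Dnajc8). Dnajc8, a chaperone gene and the nearest array gene on one side, had -0.80, -0.33, -0.04 and -0.15, and Xkr8, the nearest on the other side, had 0.68, -0.13, -0.34 and -0.75.

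**Figure D2:**
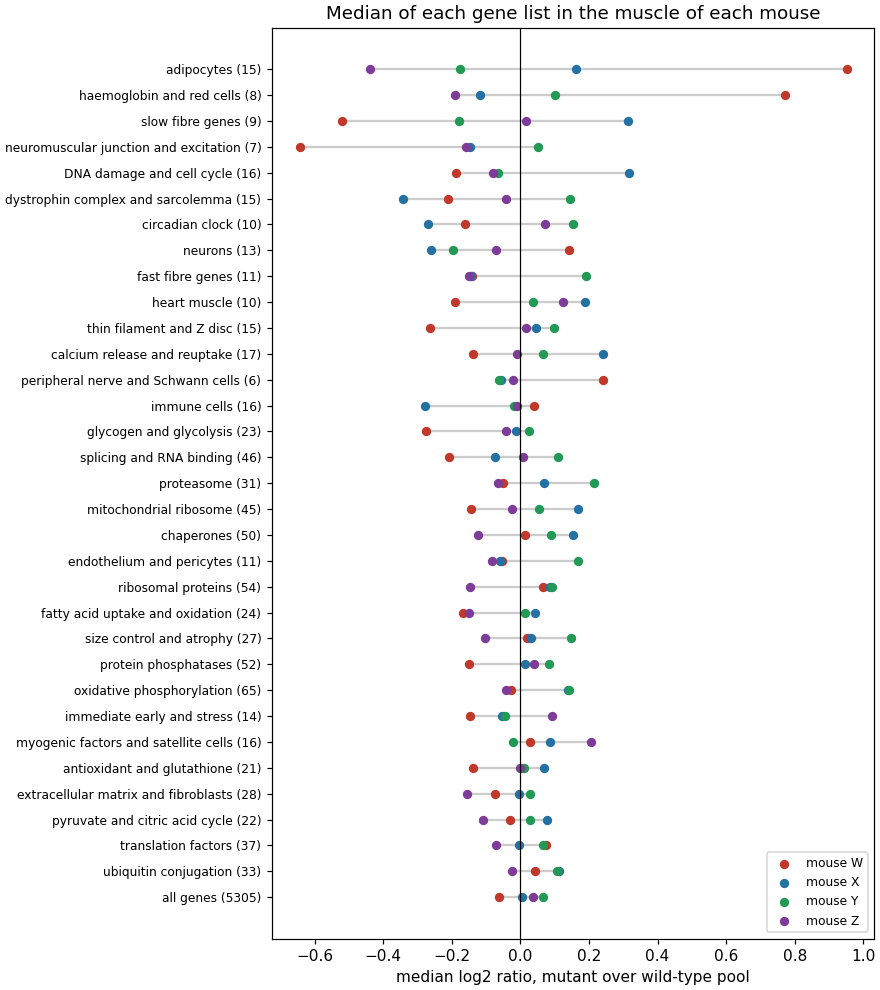
Median log2 ratio of mutant over wild-type pool (x axis) over the genes measured in all 4 mice, for each list with at least 3 such genes, with their number in brackets (y axis, ordered by the SD of the medians over the mice), and 1 point for each mouse. Of the lists plotted, the adipocyte list has the widest range, from -0.44 in mouse Z to 0.95 in mouse W, and all genes together lie between -0.06 and 0.07.

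Genes of energy metabolism had medians close to 0. Glycogen and glycolysis had 8 genes with a mean above 0 and 20 below 0 (median -0.04), but mouse W was the lowest in 15 of 23 (7 of 23 with the sign of the Cy3 arrays turned), and without mouse W there were 15 above and 10 below 0. With the sign of the Cy3 arrays turned the counts were 17 and 11. Pygm, the muscle glycogen phosphorylase, had -0.46, -0.10, -0.03 and 0.01, Pkm, the muscle pyruvate kinase, had -0.53, -0.07, 0.15 and -0.07, and Eno3, the muscle enolase, had -0.25, 0.27, 0.01 and -0.14. Only Pgm1 lay below 0 in all mice. Pfkl, a liver-type phosphofructokinase, had 0.54 ± 0.47 (SD, n = 4 mice), with its Cy3 arrays at 0.66 to 2.21 and its Cy5 arrays at -0.66 to 0.12. Pfkm, the muscle form, had -0.25, 0.29, 0.23 and 0.71. The citric acid cycle had 13 above 0 and 11 below 0 (median 0.00). Fatty acid uptake and oxidation had 9 above 0 and 16 below 0 (median -0.06), and Cpt1b, the muscle gate of fatty acid entry into mitochondria, had -1.14, -0.84, -0.11 and 0.90.

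Oxidative phosphorylation had 46 genes above 0 and 20 below 0, with a median of 0.06. The list kept 39 to 50 genes above 0 when a mouse was left out, and had 34 above 0 and 32 below 0 with the sign of the Cy3 arrays turned. In all 4 mice 6 of 65 genes lay above 0 (Atp5md, Cox6c, Ndufa1, Ndufa6, Ndufa7 and Ndufs4) and 1 below 0 (Cox6a1), against 6.67% and 4.66% of all genes. Cox6c, a subunit of cytochrome oxidase, had 0.15, 0.07, 0.11 and 0.01, and Ndufs4, a subunit of complex I, had 0.24, 0.45, 0.11 and 0.11. Atp5md, a small subunit of ATP synthase, had the largest of the 6 means, 0.34 ± 0.21 (SD, n = 4 mice). Cox6a1 had -0.26, -0.69, -0.56 and -0.62 over 2 clones. The median SD of the list was 0.18, and no list had a smaller one. The lowest mean, -1.67 for Ndufb4, a subunit of complex I, came from a Cy3 array of mouse X at -16.10, among the values beyond 10, while the other mice had 0.49, 0.73 and -0.37, and without that value its mean was 0.28. Uqcrfs1, the iron-sulphur subunit of complex III, varied most among genes free of such values, with 2.71, -1.92, 0.28 and 0.44. Mitochondrial ribosomal proteins had 29 above 0 and 23 below 0 (median 0.02), and antioxidant genes 13 and 11 (median 0.01). Gstm2, a glutathione transferase, had -0.26, -0.62, -0.16 and -0.45, and Gstm1 and Gsta4, of the same enzyme family, also lay below 0 in all mice (means -0.33 and -0.30), while Prdx1, a peroxiredoxin, had 0.07, 0.58, 0.52 and 0.24. These were among 3 below and 2 above 0 in all mice of 21.

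Ribosomal proteins had 34 genes above 0 and 22 below 0 with a median of 0.01. Mouse Z was the lowest in 37 of 54 genes, where it was the lowest in 21.6% of all genes, and the medians were 0.07, 0.09, 0.09 and -0.15 in W, X, Y and Z. On single dye orientations mouse Z was the lowest in 29 of 58 genes on the Cy5 arrays and in 24 of 54 on the Cy3 arrays, against 19.3% and 22% of all genes. With the sign of the Cy3 arrays turned it was the lowest in 8 of 54, and the medians were 0.08, 0.20, -0.05 and 0.11. Without mouse Z, 42 genes lay above 0 and 13 below 0. Rps9 lay above 0 in all mice with little spread (0.17, 0.22, 0.16 and 0.14), and Rpl6 and Rplp0 lay below 0 in all (means -0.31 and -0.18). Among translation factors, with 18 above 0 and 22 below 0, Eef2, the translocase of the ribosome, had -0.13, -0.15, -0.16 and -0.16, with an SD over the mice of 0.01. Proteasome genes had 22 above 0 and 12 below 0 (median 0.04) and ubiquitin conjugation had 24 and 18 (median 0.02), with 6 of 33 genes of the latter above 0 in all mice. These 6 were Ube2d2a, Cul5, Usp4, Usp8, Usp38 and Usp50. Usp8, a deubiquitinase of endosomes, owed its mean of 1.62 to 5.38 in mouse W, where 1 of 2 clones stood at 16.45 on the Cy5 array, and without values beyond 10 its mean was 0.50, while Usp50 had 0.66, 0.58, 0.38 and 0.14. Chaperones had 34 above 0 and 25 below 0 (median 0.03), splicing factors 25 and 30 (median -0.03), with Hnrnpa1 below 0 in all mice (-0.33 ± 0.19, SD, n = 4 mice) and Mbnl1, the splicing factor of muscle maturation, above 0 (0.16 ± 0.05, SD, n = 4 mice). Protein phosphatases had 39 and 30 (median 0.05), cell cycle genes 15 and 12 (median 0.07) and immediate early genes 10 and 10, with Fos, an activity-induced transcription factor, at -0.87, -0.44, -0.03 and -0.56. Of the circadian clock 6 lay above 0 and 8 below 0 (median -0.12), and Rora, Bhlhe40 and Nfil3 were 3 of 10 above 0 in all mice. No list had a median below -0.13 or above 0.08, other than the 2 Eya and Pax genes. Of the 33 lists 29 had more genes on one side of 0 than on the other, and under 11 other settings, among them each mouse left out, a single dye orientation and the sign of the Cy3 arrays turned, oxidative phosphorylation was the 1 list that kept its larger side throughout. Proteasome genes, for example, had 12 above 0 and 22 below 0 with the sign turned, and protein phosphatases 27 and 42.

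In further lists some of the means largest in size came from 1 clone beyond 10 on 1 array. Txnrd1, a thioredoxin reductase, had a mean of 1.88 with such a value in mouse W and -0.01 without it. Usp20, a deubiquitinase, had -2.22 and -0.32 by the same measure, Cdkn1b, the cell cycle inhibitor p27, had -1.82 and 0.34, and Chad, a protein of cartilage matrix, had -1.40 and 1.13. The chaperones Canx (0.92 and 0.10) and Dnajc7 (-1.14 and -0.16), the glutathione transferase Gstm5 (-0.88 and 0.16), the matrix protein Thbs2 (1.13 and 0.05) and the phosphatase subunit Ppp2r5d (-1.02 and -0.05) were alike in this. The sign or size of these 9 means thus rests on values that stand for a placeholder ratio.

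**Figure D3:**
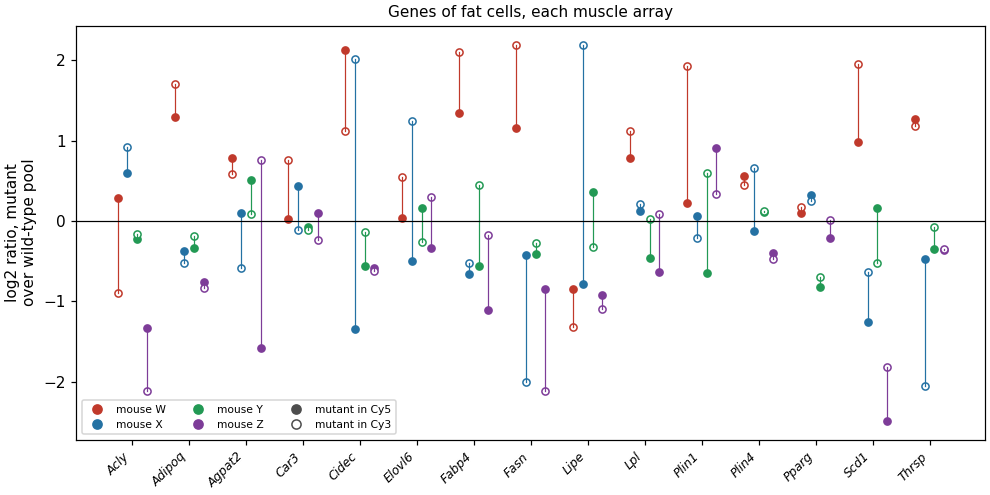
Log2 ratio of mutant over wild-type pool (y axis) of the 15 genes of fat cells measured in all 4 mice (x axis). Points are single arrays, coloured by mouse, filled with the mutant in Cy5 and open with the mutant in Cy3, and a line joins the 2 arrays of a mouse. Both arrays of mouse W lie above those of the other mice for Adipoq, Fabp4, Fasn, Lpl, Scd1 and Thrsp, and Lipe is an exception.

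The widest differences between mice were in genes of fat cells, which lie between muscle fibres and around a dissected muscle. Of 21 on the array 17 were measured, 9 with a mean above 0 and 8 below 0 (median 0.08), so the group as a whole was balanced. Its median SD over the mice was 0.86, against 0.47 for all genes, and 0.36 in heart and 0.50 in brain. Mouse W had the highest value in 11 of 15 genes, where it was the highest in 26.1% of all genes, and on the arrays of both dye orientations in 6 of 15, against 7.52%. Adipoq, the fat cell hormone adiponectin, had 1.50, -0.45, -0.26 and -0.80 in W, X, Y and Z, and the arrays of mouse W read 1.30 and 1.70. Fabp4, the fatty acid binding protein of fat cells and capillaries, had 1.72, -0.59, -0.06 and -0.64, and Fasn, the fatty acid synthase, had 1.67, -1.21, -0.34 and -1.48. In all 3 genes mouse W was above 0 and the other mice were below 0. Scd1, the stearoyl-CoA desaturase, had 1.46, -0.95, -0.18 and -2.15, and Thrsp, a regulator of fat synthesis, had 1.23, -1.26, -0.21 and -0.35. Cidec, a lipid droplet protein, had 1.62, 0.33, -0.35 and -0.61, and Lpl, the lipoprotein lipase of fat and muscle, had 0.95, 0.17, -0.22 and -0.28. Plin1, the coat of fat droplets, had 1.07 in mouse W, from arrays of 0.22 and 1.93.
Not every gene of the group followed. Lipe, the hormone-sensitive lipase, was lowest in mouse W (-1.08), Acly, the citrate lyase, had -0.31 in W and 0.76 in X, and Pparg, the master regulator of fat cells, had 0.13, 0.29, -0.76 and -0.10. The list medians were 0.95, 0.16, -0.18 and -0.44. The Cy5 arrays alone gave 0.78, -0.38, -0.33 and -0.63 and the Cy3 arrays 1.12, -0.11, -0.14 and -0.35, so mouse W was the highest on both. With the sign of the Cy3 arrays turned mouse W was the highest in 3 of 15 genes, and the medians were -0.16, -0.05, -0.06 and 0.02. Without mouse W the median SD was 0.38, and 2 genes lay above 0 and 14 below 0. With the sign of the Cy3 arrays turned the SD was 0.37.

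**Figure D4:**
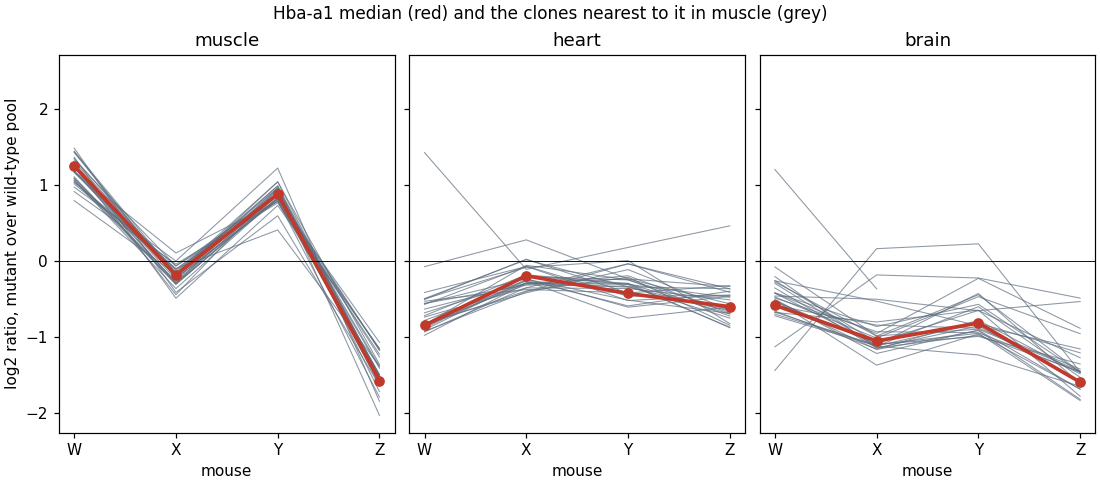
Log2 ratio of mutant over wild-type pool (y axis) in mice W, X, Y and Z (x axis) for muscle, heart and brain. The red line is the median of 6 Hba-a1 clones, and the 28 grey lines are the other clones within a root mean square distance of 0.3 of it in muscle. In brain 19 of the 25 clones with a grey line there lie within 0.3 of the red line, which runs from -0.58 in mouse W to -1.59 in mouse Z.

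Haemoglobin messenger RNA, which comes from red cells in the blood of the tissue, varied by mouse as well. The median of the 6 Hba-a1 clones, of the adult alpha chain, was 1.25, -0.19, 0.88 and -1.57 in muscle, a mean of 0.09 ± 1.27 (SD, n = 4 mice). In heart it was -0.85, -0.19, -0.43 and -0.60, and in brain -0.58, -1.05, -0.81 and -1.59. Mouse Z was the lowest in muscle and brain, and mouse W in heart. Hba-x, the embryonic zeta chain, had 1.07, -0.22, 0.93 and -1.20 in muscle. Alas2, the heme synthesis enzyme of red cells, had 1.67, 1.23, -0.02 and -0.68, and Bpgm, a red cell enzyme, had 0.31, -0.12, 0.13 and 0.01, so these red cell genes did not run parallel to Hba-a1. Clones of other genes did. In muscle 28 clones that are not haemoglobin by name lay within a root mean square distance of 0.3 of the Hba-a1 median over the 4 mice, while the median distance over the 9697 clones measured in all mice was 1.24. Of these clones 17 had a symbol, among them Krt16, a keratin of skin, with 1.24, -0.24, 0.94 and -1.63, Rhob, a small GTPase, with 1.33, -0.07, 0.79 and -1.50, and Tap1, a peptide transporter of antigen presentation, with 1.31, -0.16, 1.04 and -1.36. Nup155, a nuclear pore protein, had 1.43, -0.23, 0.81 and -1.52. Chosen on the muscle values, 19 of the 25 clones measured in all mice in brain were within 0.3 of the Hba-a1 median there too, of 21 such clones among 12076. In numbers 15000 to 15999 of the clone set lay 13 of the 28, beside 5.65% of the measured clones. What these clones share with haemoglobin, in sequence or in their place in the clone set, was not tested.

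**Figure D5:**
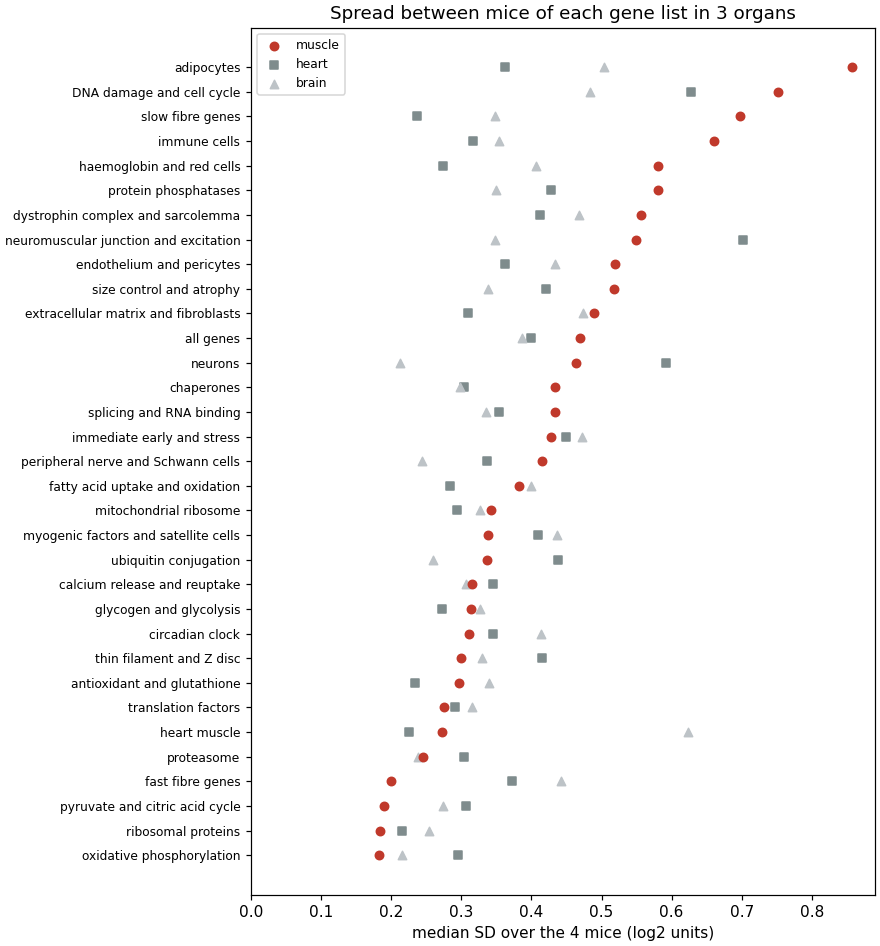
Median over genes of the SD over the 4 mice, in log2 units (x axis), for each gene list (y axis), in muscle (circles), heart (squares) and brain (triangles). The adipocyte and slow fibre lists lie farthest to the right of heart and brain in muscle, at 0.86 and 0.70, and oxidative phosphorylation is at 0.18.

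Over all genes the SD over the mouse means was larger in muscle than in the other organs. The median SD over the 4 mice was 0.469 in muscle, 0.400 in heart and 0.387 in brain, and 14.6%, 9.91% and 9.82% of genes had an SD over 1. The arrays of a mouse differed by about the same in each organ, with a median size of 0.671, 0.672 and 0.647. Each SD over the mice includes such differences between arrays, and their share in it was not tested. The swapped muscle arrays of a mouse had a Pearson's r of only -0.05 to -0.01 across clones. Mouse W also held the arrays with the most spots without a value (21.1% and 24.5%), and the part of these spots in the spread was not tested. Without mouse W the median SD in muscle was 0.40. Among single clones, the largest SDs outside values beyond 10 were in Adam5, a sperm protein (2.62), and Csrp1, a smooth muscle LIM protein (2.61). Over all clones of the gene the mean was 0.16 for Adam5 and 0.34 for Csrp1, against -0.14 and 0.75 for these clones. The clone of Calm4, a calmodulin-like protein of skin, came next (2.60). Calm4 had -2.78, 0.30, -0.13 and 3.57, with both arrays of W (-2.57 and -3.00) and of Z (4.19 and 2.94) on the side of their mean. Ddb1, which recognises damaged DNA, had 4.31 in mouse Y on arrays of 5.34 and 3.27, and S100a5, a calcium-binding protein, had -3.61 in mouse W on arrays of -3.49 and -3.73.

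Clones that stood apart in a single mouse were counted by a rule set after the values were seen, beyond 1 in size and on the same side on both arrays of that mouse, with the other 3 mice within 0.75 on both of theirs. Mouse W had 13 such clones above 0 and 47 below 0, X had 7 and 7, Y had 1 and 30, and Z had 3 and 2. When the 2 arrays of the mouse had to lie beyond 1 on opposite sides instead, the counts were 16 and 34 in W, 2 and 11 in X, 0 and 1 in Y, and 2 and 5 in Z, by the side of the Cy5 array. For the low clones of mouse Y this was 1 clone against 30 that kept their side. The 30 clones low in mouse Y had values between -1.92 and -1.10 there (median -1.47, with -1.57 on the Cy5 and -1.35 on the Cy3 array) and between -0.25 and 0.56 in the other mice. Their medians in mouse Y were 0.10 in heart and 0.19 in brain. Only 5 carried a symbol, Grin2a, a glutamate receptor subunit (-1.56 in Y), Zfp12, a zinc finger protein (-1.39), Ccl7, a chemokine (-1.30), Slc15a5, a transporter (-1.18), and Msx1, a homeobox factor of limb and myoblast development (-1.14). Among the 47 low clones of mouse W was one of Ncl, the nucleolin gene (-1.40), and clones of the RNA-binding proteins Srsf1 (-1.09) and Sf3b6 (-1.59), whose means over all their clones were -0.69 and -0.64 in that mouse.

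Markers of further cell types were spread around 0. Extracellular matrix and fibroblast genes had 14 above 0 and 21 below 0 (median -0.09), and with the sign of the Cy3 arrays turned 24 and 11. In all 4 mice 1 of 28 lay above 0 and 5 below 0, against 6.67% and 4.66% of all genes. The 5 were Bgn, Dcn and Fmod, proteoglycans of collagen fibres, Col1a2, a chain of type I collagen, and Timp3, an inhibitor of matrix proteases. Timp3 had -0.26, -1.31, -0.62 and -0.62 over 4 clones, a mean of -0.70 ± 0.44 (SD, n = 4 mice), and lay below 0 on 7 of 8 arrays. Fmod had -1.51, -0.59, -0.28 and -0.33, and Col1a2 had -0.21, -0.33, -0.03 and -0.19. Col5a2, a chain of type V collagen, had 0.79, 0.84, 0.46 and 0.06 and was the 1 gene above 0. Endothelial and pericyte genes had 7 above 0 and 8 below 0 (median -0.02), with Pdgfrb, the receptor that marks pericytes, at -1.12, -0.87, -0.14 and -0.08. Immune cell genes had 10 above 0 and 13 below 0 (median -0.02). Ptprc, the leukocyte antigen CD45, had -1.89, -0.56, -0.06 and -0.07, and S100a9, a neutrophil protein, had -3.18 in mouse W and 0.05 to 0.35 in the others. Neither of the 2 clones of S100a9 was measured in all 4 mice, so the mice were not compared on the same clones. In the mean of both arrays the list was not low in mouse W, whose median was 0.04, with 3 of 16 genes lowest and 5 of 16 highest. Its arrays were opposed, however, with medians of -0.76 on Cy5 and 0.62 on Cy3. Mouse W was the lowest in 10 of 20 genes on the Cy5 arrays, against 31.9% of all genes. On the Cy3 arrays it was the highest in 10 of 20, against 26.8%. Lyz2, the lysozyme of macrophages, had 0.72, -1.09, 0.02 and 0.08, and Tyrobp, a signalling adaptor of myeloid cells, had 0.31, -2.77, 0.50 and -1.32. B2m and H2-K1, of the class I antigen complex that all cells carry, were highest in mouse W, at 0.80 and 1.04, with the other mice between -0.45 and -0.04. Peripheral nerve genes had 4 above 0 and 5 below 0 (median -0.07). None of these lists had the spread of the adipocyte genes. Neuron markers had 9 on each side of 0.

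The ratios of muscle were also compared with those of the other organs, clone by clone. Without mouse as a block, limma called 0 of 13395 clones between muscle and heart (0%) and 0 of 12762 between muscle and brain (0%). The lowest adjusted p-values from this limma fit were 0.163 and 0.701, and 678 and 833 clones had an unadjusted p under 0.05. With no difference this threshold gives a share of 0.05, which the count against heart is near and that against brain exceeds. With mouse as a replicate block the lowest adjusted p-values from limma were 0.897 and 0.752. The organ pools differ, so a difference between organs holds that of the pools too. Since the fat cell genes were spread by mouse in muscle and less so in heart and brain, their values in mouse W are given for all organs. Their list median in mouse W was 0.95 in muscle, 0.22 in heart and -0.13 in brain. The slow fibre list had -0.52 in mouse W in muscle and 0.11 in heart.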

How the data were processed

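Total RNA of each organ was labelled with Cy3 or Cy5 and hybridised together with the wild-type pool of that organ, in the other dye, to glass arrays of cDNA clones. Scanning (GenePix) and normalization (MIDAS) were done by the authors. They deposited log2 ratios, 1 column for each array. The method and filters inside MIDAS, the intensities behind each ratio and therefore the depth of signal are not given in the sources used here. Columns of swapped arrays were taken as already turned.

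The 2 arrays of each mouse were averaged and clones with a value on both arrays in at least 3 of 4 mice were tested against 0 with limma 3.58.1 in R 4.3.3 (empirical Bayes, Benjamini-Hochberg adjustment over all clones, threshold 0.10). SAM with 16 sign flips was run as well. Ratios were not centred or filtered further, and the number of arrays limits their precision. Clones were named by the platform annotation, where 12771 of 20794 clones had 1 symbol, and clones of a symbol were averaged. In each mouse the average took the clones with a value there, so mice can differ in the clones behind a gene. Gene lists were described by counts and medians without a test, in Python 3.11.15 with pandas 2.3.3 and numpy 2.4.6. The limma steps were tested on simulated data. Promoters came from RefSeq (GRCm38.p6).

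Members and lists were chosen with earlier results of these data known. Names were drawn from the clones with the lowest p, those farthest from 0 in all mice and those with the largest SD, in each list the 4 genes with the largest mean in size and the 2 with the largest SD, and all fibre, Eya and Pax genes and haemoglobin clones with their nearest clones. Of the 147 genes this picks in the lists, 81 are given in the text, and the 66 left out had means between -0.88 and 0.75. Other genes were named after their values were seen.

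The same 4 mice gave muscle, heart and brain, but the fit between organs given in the results did not pair them by mouse. A fit with mouse as a replicate block was run as an alternative. The correlation of a mouse's deviations between muscle and heart or brain across clones lay between -0.0123 and 0.0188. Alternatives changed the centring, scaling, missing values, extreme values, dye orientation, sign of the Cy3 arrays, variance estimate, replicate unit, handling of clones, threshold and test, and left out each mouse.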

Additional observations from a re-analysis of the deposited data

Results flagged for a closer look

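Values in which 1 of the 4 mice stood far from the other 3 (by Dixon's criterion on the gap to the nearest mouse) were found for 23 of 189 values examined. Chance gives about 1 in 20 groups, but many of these genes were named for their spread, so the count is not set against that rate. Among list medians, mouse Y stood high for the fast fibre genes (0.192, other mice -0.151 to -0.142) and for endothelium and pericytes (0.167), mouse Z low for ribosomal proteins (-0.147), and mouse W high for peripheral nerve and Schwann cells (0.24).

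Mouse W was apart in 8 of the 23 values. It stood low for Myl2 (-2.2) and Myl3 (-3.3), the slow myosin light chains, for Tcap (-0.265), for Asph (-0.00625) and for S100a9 (-3.18). It stood high for H2-K1 (1.04) and Usp8 (5.38). Mouse Y stood high for Casq1 (0.192) and Ddb1 (4.31), and low for Grin2a (-1.56), Mef2d (-4.18) and Zfp12 (-1.39). Mouse X stood low for Tnnt3 (-0.399), Ndufb4 (-7.54) and Usp20 (-7.91), and high for Camk2g (2.16) and Canx (3.39), mouse Y low for Gstm5 (-3.94) and mouse Z low for Cdkn1b (-8.3). The values of Usp8, Mef2d, Ndufb4, Usp20, Canx, Gstm5 and Cdkn1b hold a clone beyond 10 in size on 1 array, and without such values the means of these genes lay between -0.32 and 0.50. No clone of S100a9, Camk2g or Cdkn1b was measured in all 4 mice, so for these genes the mice were not compared on the same clones.

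Pairs of a gene or a list median with heart or brain were examined, 325 in all. In 11 of them, all for genes, all 4 mice lay on one side of 0 in muscle and all 4 on the other side in that organ. Some of these genes were named for lying on one side of 0 in muscle, so the count is not set against a rate. The difference itself was not tested for these genes beyond the fit over all clones, which called 0 clones. Against heart these were Ago4, with a mean of -0.298 in muscle and 0.315 in heart, Ptprc (-0.644 and 0.631), Rora (0.347 and -0.281) and Rplp0 (-0.182 and 0.207). Against brain they were Tbx5 (0.714 in muscle and -0.305 in brain), Car2 (0.573 and -0.284), Mef2c (0.202 and -0.326), Srf (0.17 and -0.198) and, among subunits of oxidative phosphorylation, Cox6c (0.0854 and -0.332), Ndufa1 (0.0611 and -0.255) and Ndufa6 (0.103 and -0.312).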

How the results depend on the processing

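No clone was called in muscle under any alternative run (0 of 7290 to 20238 features), where 297 to 1275 had an unadjusted p under 0.05 and the lowest adjusted p from limma was 0.589 to 0.995. This includes an alternative added after the data were seen, without values beyond 10 and ratios of small whole numbers (0 of 11944 clones, 468 with an unadjusted p under 0.05). With mouse as a replicate block, 0 clones were called between muscle and heart and 0 between muscle and brain, with 597 and 692 at an unadjusted p under 0.05, and the block changed no call. Leaving out each mouse called 0 clones in all 3 comparisons. It moved the median of the fast fibre genes between -0.14 and -0.03, that of the slow fibre genes between -0.31 and 0.04, the latter without mouse W, that of the adipocyte genes between -0.20 without mouse W and 0.20, and the median SD over all genes between 0.40 and 0.47. With the sign of the Cy3 arrays turned, 1553 clones lay below 0 in all 4 mice in place of 477, and the cause was not tested, while the count above 0, 672, moved by less than 1.5 times. Of 34 medians, of the 33 lists and of all genes, 20 took the opposite sign under that turn, 17 with the Cy5 arrays only and 12 with the Cy3 arrays only, against 6 after centring, 7 after scaling, and 12, 12, 8 and 7 without mouse W, X, Y or Z. Of 162 gene means, 98 took the opposite sign with the Cy3 arrays turned, and 13 to 29 when a mouse was left out. With 4 mice, ratios and no intensities, dim spots could not be told from bright ones.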
